A study of Mus musculus with 8 samples.

Results

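Neurotrophins, their receptors and transcription factors of the inner ear ganglia were described by 6 genes, the ligands Bdnf and Ntf3, the receptors Ntrk2 and Ntrk3, and the transcription factors Gata3 and Pou4f1. They were taken by symbol from count files that list 47517 symbols, and all 6 were among the 21392 genes that passed the filter on low counts. RNA of the whole inner ear was sequenced in 4 libraries of mutant mice and 4 libraries of wild-type littermates, all untreated and at postnatal day 14. The mutants are heterozygous for a frameshift in Thra that alters the function of TRα1, a receptor for thyroid hormone, and the wild-type mice carry no such allele. The comparison asked how the RNA of the mutant inner ear differs from that of wild-type littermates. The labels give the tissue as inner ear while the series title names the cochlea, so vestibular as well as auditory ganglion neurons may have contributed. Strain, sex, litter and the number of animals in a library are not given in the labels, and p-values therefore measure the spread between these libraries, which may in part be technical.

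Neurotrophins are secreted proteins that keep sensory neurons alive and sustain their connections. In the inner ear, hair cells and supporting cells release brain-derived neurotrophic factor (BDNF, from Bdnf) and neurotrophin 3 (NT-3, from Ntf3), which bind the receptor tyrosine kinases TrkB (from Ntrk2) and TrkC (from Ntrk3) on neurons of the spiral and vestibular ganglia. GATA3 is a zinc finger factor needed for the formation of the inner ear and of its auditory neurons, and POU4F1 (Brn3a) is a homeodomain factor of differentiating sensory neurons.

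Both receptor genes also make truncated receptors that lack the kinase, and a count per gene adds these forms together. The sequences below are shown because a read from the lower-case stretch fits both forms of a receptor, while one from the capitals tells them apart. Each line holds the last coding bases that the longest and the shortest CCDS coding transcripts share, in lower case. The capitals are the next coding bases of the named transcript, which come from different genomic positions in the longest and the shortest form. The first capital is G in both forms of Ntrk2 and does not tell them apart. They were taken from the GENCODE M21 transcripts of GRCm38 (mm10). The capitals of Ntrk2-201 lie at chr13:58985802-58985836 and those of Ntrk2-202 at chr13:58932023-58932057, on the plus strand. Those of Ntrk3-201 lie at chr7:78260380-78260414 and those of Ntrk3-202 at chr7:78304392-78304426, on the minus strand.
Ntrk2-201: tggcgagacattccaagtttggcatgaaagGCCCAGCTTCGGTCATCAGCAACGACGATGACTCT
Ntrk2-202: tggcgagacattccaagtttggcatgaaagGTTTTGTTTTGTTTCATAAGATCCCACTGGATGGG
Ntrk3-201: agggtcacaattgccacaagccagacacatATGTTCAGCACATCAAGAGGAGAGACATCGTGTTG
Ntrk3-202: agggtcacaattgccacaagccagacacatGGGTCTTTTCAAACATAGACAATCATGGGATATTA
The coding sequence has 2463 bases in Ntrk2-201 and 1428 in Ntrk2-202, of which the first 1393 are shared, so 1070 and 35 bases follow the point where they part. It has 2475 bases in Ntrk3-201 and 1836 in Ntrk3-202, of which the first 1585 are shared, so 890 and 251 bases follow. Full-length and truncated receptors could not be counted apart in these files.

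Of the 6 genes, none passed the threshold in mutant against wild-type libraries, an adjusted p under 0.05 over all 21392 genes by edgeR's quasi-likelihood test. That threshold was passed by 9 genes in all, a share of 0.0421%, with 1 higher (0.00467%) and 8 lower (0.0374%) in mutants. DESeq2, which called 68 genes in all (0.318%), and limma-voom also called 0 of the 6. At an unadjusted p under 0.05, Ntrk3 alone was counted, as a higher gene, where 5.3% of all genes were, 2.21% of them higher and 3.09% lower in mutants. Ntrk3 was also the only one of the 6 without overlap between the genotypes, every mutant library being higher, as in 1.28% of all genes, while 1.41% had every mutant library lower and 2.69% lacked overlap in either direction. The log2 fold change, mutant over wild-type, was positive for Ntrk2 and Ntrk3 and negative for Bdnf, Ntf3, Gata3 and Pou4f1, so 2 of 6 were positive, where 48.3% of all genes were, with a median of -0.10 over the 6 genes beside -0.01 over all genes tested.

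**Figure D1:**
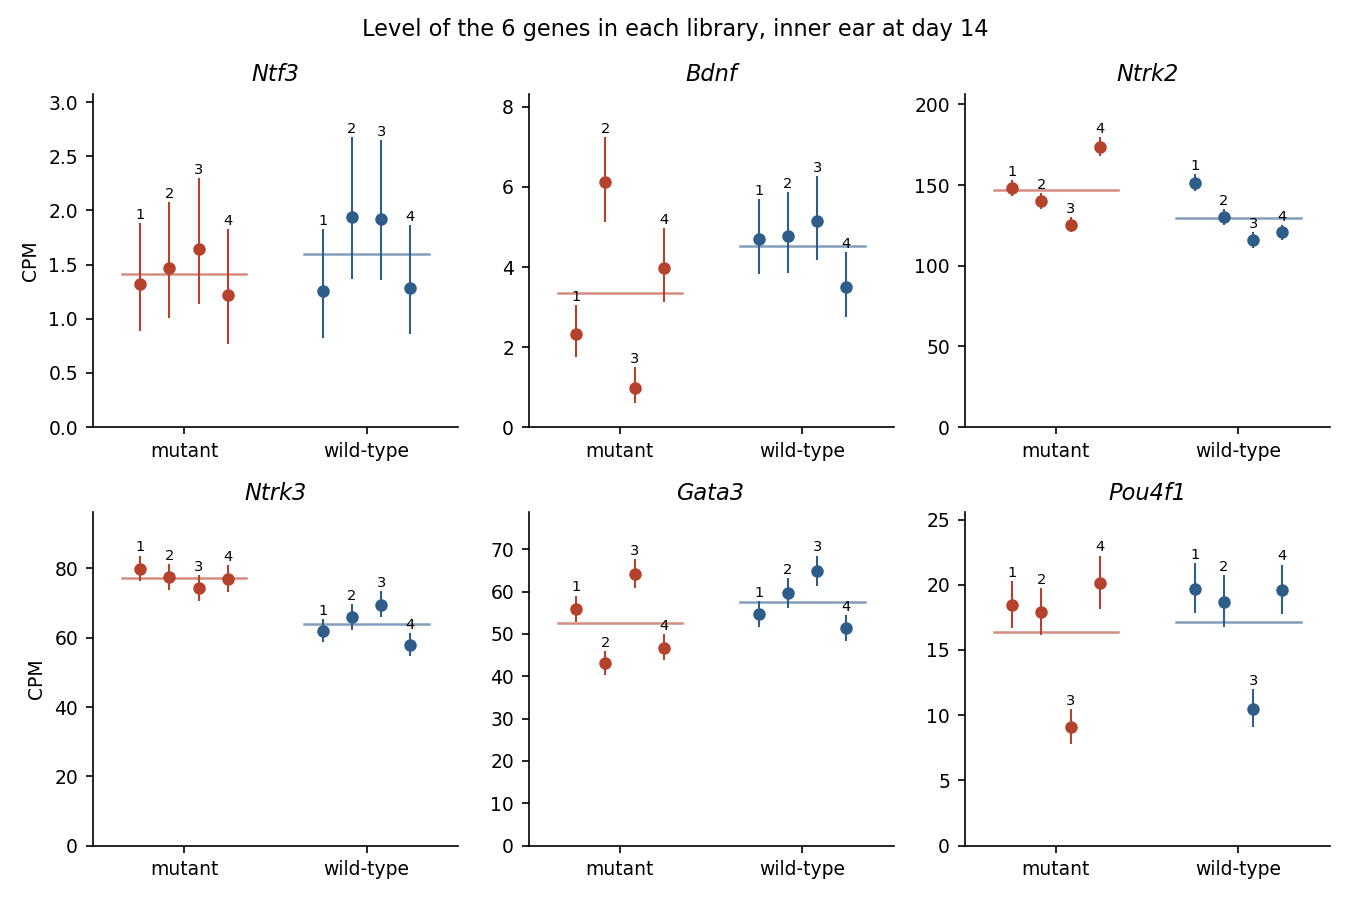
Level of each of the 6 genes per library, in CPM (counts per library size after TMM scaling) on axes that start at 0, with mutant libraries left and wild-type libraries right of each panel. Points are libraries marked by replicate number, vertical bars give the exact Poisson 95% interval of each count, and horizontal lines give the mean of 4 libraries. The genotypes are apart only for Ntrk3, Bdnf is scattered in mutants, and Pou4f1 is lowest in replicate 3 of both genotypes.

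Libraries held 19662433 to 23064578 counts in mutants and 18930841 to 22028397 in wild-type mice, so that 3 counts, used as the floor of detection, correspond to 0.130 to 0.158 CPM. Mitochondrial genes took between 8.57% and 11% of the counts of a library, and haemoglobin genes between 0.782% and 4.88%. Eif2s3y, a Y-linked gene, had 530 counts in mutant replicate 3 and 545 and 520 in wild-type replicates 2 and 3, against at most 2 in each other library. Xist, expressed from the inactive X chromosome, was present in all 8, so these 3 libraries hold RNA of both kinds. Titles hold 2 numbers for replicates 2 and 3 of either genotype but 1 number for replicates 1 and 4, which was treated as a possible batch. Thra, the mutated gene, had 127 ± 10.2 CPM in mutant and 107 ± 8.28 CPM in wild-type libraries (SD, n = 4 each), and its log2 fold change was 0.24 (SE 0.09, edgeR adjusted p = 0.924).

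Bdnf (chr2:109674700-109727007, plus strand) was the most uneven of the 6 genes in mutants. It had 2.33, 6.12, 0.969 and 3.97 CPM in mutant replicates 1 to 4, against 4.69, 4.78, 5.15 and 3.50 CPM in wild-type replicates 1 to 4. Mutant replicate 2 was thus above every wild-type library and mutant replicate 3 below all of them. The highest mutant library exceeded the lowest 6.31-fold, and the highest wild-type library exceeded the lowest 1.47-fold. The 133 counts of mutant replicate 2 have an exact Poisson 95% interval of 111 to 158, and the 20 counts of mutant replicate 3 one of 12.2 to 30.9, so counting error alone does not bridge them. Such intervals and floors cover counting error only. Means were 3.35 ± 2.22 CPM in mutants and 4.53 ± 0.717 CPM in wild-type mice (SD, n = 4 each). The log2 fold change of -0.44 had a 95% interval of -1.49 to 0.62 (SE 0.46, edgeR adjusted p = 1), which holds both a large decrease and a moderate increase. Without mutant replicate 3 it was -0.13, without mutant replicate 2 it was -0.90, and without both replicate 3 libraries it was -0.05, none of them past the threshold.

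Ntf3 (chr6:126101412-126166910, minus strand) was a low gene in all libraries. It had 30, 32, 34 and 23 counts in mutant replicates 1 to 4 and 27, 37, 37 and 28 counts in wild-type replicates 1 to 4, or 1.32, 1.47, 1.65 and 1.22 CPM in mutants and 1.25, 1.94, 1.92 and 1.29 CPM in wild-type mice. The 2 highest values belong to wild-type replicates 2 and 3, while the other wild-type libraries lie within the mutant range. Its log2 fold change was -0.18 (SE 0.24, 95% interval -0.72 to 0.37, edgeR adjusted p = 1). Within the libraries with 1 number in the title the log2 difference in CPM was -0.0042, and within those with 2 numbers it was -0.31.

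Another ligand of the family was near the floor of detection. Ntf5, neurotrophin 4/5 and a second ligand of TrkB, had 17, 11, 7 and 10 counts in mutants and 5, 14, 14 and 12 in wild-type mice, a log2 fold change of -0.07 (SE 0.44).

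Among the receptors, Ntrk3 (chr7:78175959-78738012, minus strand) had 80.0, 77.6, 74.3 and 77.0 CPM in mutant replicates 1 to 4. In wild-type replicates 1 to 4 it had 62.0, 65.9, 69.5 and 58.0 CPM. Every mutant library lay above every wild-type library, and the mutants were closely grouped, with a coefficient of variation of 3% against 7.82% in wild-type mice. Means were 77.2 ± 2.32 CPM in mutants and 63.8 ± 4.99 CPM in wild-type mice (SD, n = 4 each). The log2 fold change of 0.27 (SE 0.07) corresponds to a 1.21-fold ratio with a 95% interval of 1.08 to 1.36. Its unadjusted edgeR p of 0.00536 ranked 129 of 21392 genes, and neither edgeR (adjusted p = 0.879) nor DESeq2 (adjusted p = 0.101) called it. Gm9885, annotated antisense to Ntrk3, had 17 to 33 counts per library, few beside the 1255 to 1822 of Ntrk3. The log2 difference was 0.39 within libraries with 1 number in the title and 0.17 within those with 2, positive in both.

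Ntrk2 (chr13:58806569-59133970, plus strand) had 148, 140, 125 and 174 CPM in mutant replicates 1 to 4, against 151, 130, 116 and 121 CPM in wild-type replicates 1 to 4. Mutant replicate 4 was the highest of the 8 libraries and wild-type replicate 3 the lowest, and the remaining libraries overlap. For Ntrk2 the log2 fold change was 0.18 (SE 0.12, 95% interval -0.10 to 0.46, edgeR adjusted p = 0.972), with 0.09 when mutant replicate 4 was left out and 0.275 when wild-type replicate 1 was. Ntrk2 is also strongly expressed by astrocytes, in which the truncated form prevails, so in a bulk library its counts need not come from neurons.

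The ratio of one member to another within a library does not depend on the scaling between libraries. For Ntrk2 over Ntrk3 the log2 ratio was 0.92 ± 0.18 in mutants and 1.01 ± 0.23 in wild-type libraries (SD, n = 4 each), a difference of -0.10 (two-sided exact permutation p = 0.571, n = 4 and 4). For Bdnf over Ntf3 the linear ratio was 1.77, 4.16, 0.588 and 3.26 in mutants and 3.74, 2.46, 2.68 and 2.71 in wild-type libraries (log2 difference -0.56, exact permutation p = 0.514, n = 4 and 4). This ratio was lowest in mutant replicate 3 and highest in mutant replicate 2. These are ratios of counts, not scaled to gene length, and do not say which of 2 genes had the higher level. Benjamini-Hochberg adjustment over 3 ratios, the third being Gata3 over Pou4f1, gave 0.8 for each. The smallest exact permutation p that 4 against 4 libraries allow is 0.0286. An adjusted value can therefore pass 0.05 only where at least 2 of the 3 ratios reach it.

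**Figure D2:**
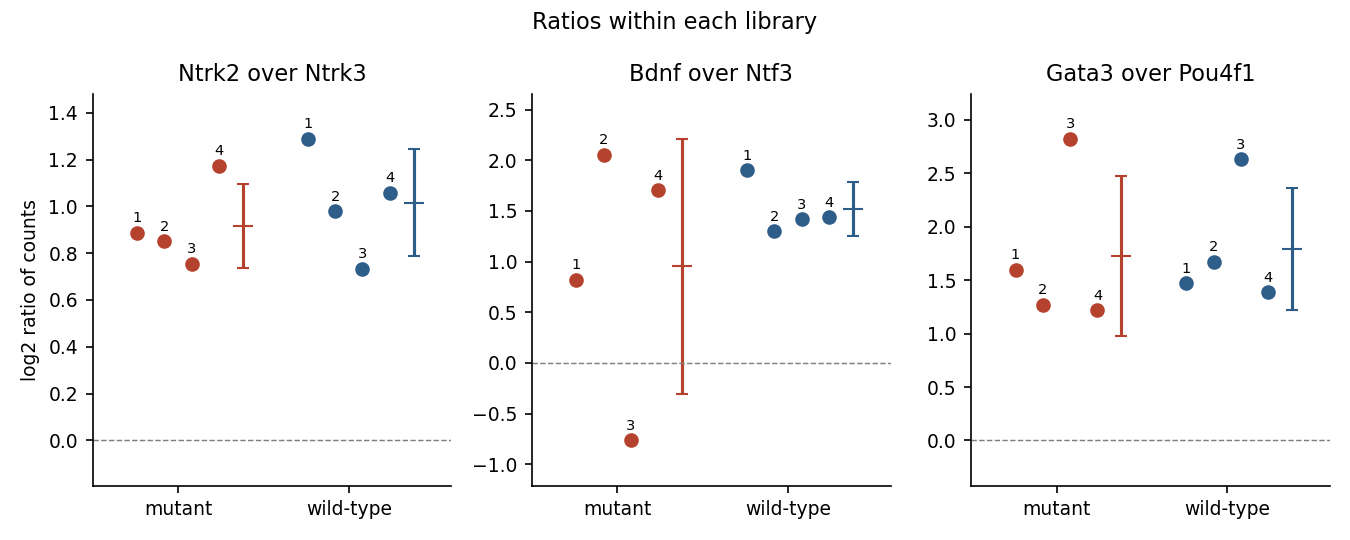
Ratios of Ntrk2 over Ntrk3, Bdnf over Ntf3 and Gata3 over Pou4f1 within each library on a log2 axis, mutant libraries left and wild-type libraries right. Points are libraries and bars give the mean and SD of 4 libraries. The groups overlap for each ratio, and the replicate 3 libraries are highest for Gata3 over Pou4f1 in both genotypes.

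Gata3 (chr2:9857078-9890034, minus strand) had 55.9, 43.1, 64.2 and 46.8 CPM in mutant replicates 1 to 4 and 54.6, 59.6, 64.8 and 51.3 CPM in wild-type replicates 1 to 4. The 2 lowest libraries were mutants, replicates 2 and 4, and the highest of both genotypes was replicate 3. The log2 fold change was -0.13 (SE 0.13, 95% interval -0.44 to 0.17, edgeR adjusted p = 1). Gata3 overlaps annotated neighbours on both strands, and the strand setting of the counts is not given in the sources used here, so their reads cannot be kept apart with certainty. Among these, Gm13256, antisense to it, had 143 counts in mutant replicate 3 and 0 in the other 7 libraries.

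Pou4f1 (chr14:104461676-104467999, minus strand) was split by replicate and not by genotype. It had 18.4, 17.9, 9.06 and 20.1 CPM in mutant replicates 1 to 4 and 19.7, 18.7, 10.5 and 19.6 CPM in wild-type replicates 1 to 4. Replicate 3 of each genotype was close to the other and far below the remaining 6 libraries, which lie between 17.9 and 20.1 CPM. The log2 fold change was -0.06 (SE 0.28, 95% interval -0.70 to 0.57, edgeR adjusted p = 1). This unpaired interval includes the spread between replicates. With same-numbered libraries of both genotypes as a replicate block, the Pou4f1 log2 fold change was -0.0805 with a smaller SE of 0.0765, again not past the threshold. Gata3 over Pou4f1 was accordingly 3.03, 2.41, 7.08 and 2.33 in mutants and 2.77, 3.19, 6.20 and 2.62 in wild-type libraries, with a log2 difference of -0.06 (exact permutation p = 0.8, n = 4 and 4).

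The same libraries were the lowest of their genotype in the sum of other ganglion neuron genes. The summed level of 30 such markers, among them neurofilaments and synaptic genes, was 9042, 6803, 5935 and 9102 CPM in mutant replicates 1 to 4 and 8807, 7112, 5997 and 8746 CPM in wild-type replicates 1 to 4. By this sum, however, replicates 2 and 3, the libraries with 2 numbers in the title, both lay below replicates 1 and 4 in each genotype. Both replicate 3 libraries were below all others in 18 of the 30 markers (60%), a comparison chosen after the values had been seen, and in 1662 of 21392 genes (7.77%). Relative to that sum, Pou4f1 had 2.04, 2.63, 1.53 and 2.21 CPM per 1000 CPM of ganglion markers in mutants and 2.24, 2.63, 1.74 and 2.24 in wild-type mice, so that the gap of replicate 3 narrowed without closing. In bulk libraries, fewer cells of a type and less RNA per cell cannot be told apart. The part of title form, dissection, animals or sequencing in these differences was not tested.

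**Figure D3:**
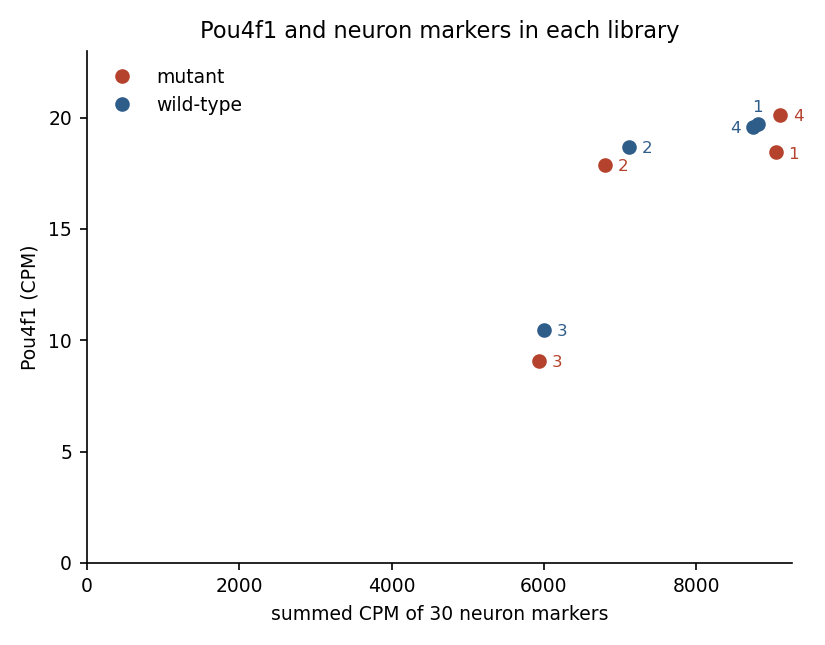
Pou4f1 in CPM (vertical axis) against the summed CPM of 30 ganglion neuron markers (horizontal axis) in the 8 libraries, marked by genotype and replicate. The replicate 3 libraries sit together at the lower left, at 9.06 CPM in the mutant and 10.5 CPM in the wild-type library, and the other libraries lie at 17.9 CPM or more.

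To set the levels of different genes in order, CPM per kilobase of the union of their exons was used. Gata3 was highest, at 13.2 ± 2.37 in mutants and 14.5 ± 1.49 in wild-type mice (SD, n = 4 each), followed by Ntrk2 at 7.61 ± 1.05 in mutants and 6.71 ± 0.821 in wild-type mice. Pou4f1 (3.50 ± 1.06 in mutants, 3.66 ± 0.954 in wild-type mice) and Ntrk3 (2.56 ± 0.0769 and 2.12 ± 0.165) came next and overlapped each other in both genotypes. Ntf3 (0.825 ± 0.110 in mutants, 0.935 ± 0.223 in wild-type mice) and Bdnf (0.538 ± 0.357 and 0.728 ± 0.115) were lowest and overlapped as well. The order depends on the length used. With the median length of the CCDS transcripts, chosen after the data had been seen, the mean of Ntrk2 stood above that of Gata3, without overlap in mutants and with overlap in wild-type mice. Ntrk3 then stood above Pou4f1 in both genotypes without overlap, and Bdnf and Ntf3 overlapped in both, Ntf3 having the higher mean in mutants and Bdnf in wild-type mice.

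**Figure D4:**
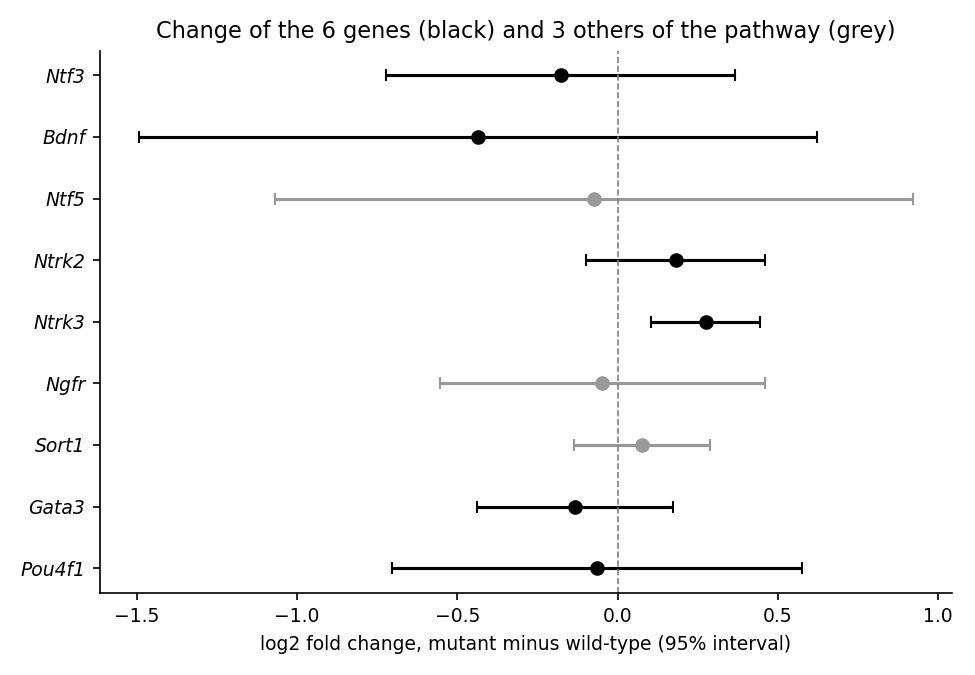
Log2 fold change, mutant over wild-type, of the 6 genes and of other genes of the neurotrophin pathway, with the 95% interval of the edgeR fit. The interval of Ntrk3 (0.10 to 0.44) lies above 0 and that of Bdnf (-1.49 to 0.62) is the widest of the 6 genes, and no gene shown passed the adjusted threshold.

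Other genes of neurotrophin signalling stayed below the threshold too. Of 25 tested genes of ligands, receptors, processing enzymes and adaptors, the 4 ligands and receptors described above included, 15 had a positive and 10 a negative log2 fold change, with a median of 0.03, and edgeR, DESeq2 and limma-voom called 0 of them. Only Ntrk3 and Sorcs2 had an unadjusted p under 0.05. Ngfr, the p75 receptor, had a log2 fold change of -0.05 (SE 0.22), and Sort1, sortilin and a receptor for proneurotrophins, one of 0.08 (SE 0.09). Sorcs2, a related receptor, stood at 0.52 (SE 0.21, edgeR adjusted p = 0.924), Bex1, an adaptor-like protein that binds p75, at -0.42 (SE 0.19), and Gab1, a docking adaptor, at 0.22 (SE 0.11).

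Downstream of the receptors, 23 genes of the Ras-MAPK, PI3-kinase and phospholipase C branches and their targets were tested. Of these, 18 had a positive log2 fold change, with a median of 0.05, and 0 were called by edgeR, DESeq2 or limma-voom, while 1 had an unadjusted p under 0.05. Among those with the smallest p-values, Pik3r1, a regulatory subunit of PI3-kinase, stood at 0.18 (SE 0.08) and Nras, a small GTPase, at 0.17 (SE 0.08). Of 17 tested genes listed as ganglion transcription factors, Gata3 and Pou4f1 included, 6 were positive and 11 negative. Their median was -0.06, and the 3 tools called 0. In bulk libraries their counts need not come from neurons. Gata3 was highest in replicate 3 of each genotype, where the ganglion marker sum was lowest, and Prox1 is also on the supporting cell list. The other factors with the smallest p-values were Runx1 (log2 fold change -0.28, SE 0.12, unadjusted p = 0.0376 in edgeR's test across all genes), Casz1 (-0.26, SE 0.17) and Neurod1 (-0.86, SE 0.68). Runx1 was highest in replicate 2 of each genotype. These libraries also had the largest haemoglobin share of their genotype, 1.9% in mutants and 4.88% in wild-type mice. A link between them was not tested. Of 20 other trophic factors and receptors tested, 11 were positive, with a median of 0.02 and 0 called by the 3 tools. Ptn (0.65, SE 0.23) and Mdk (0.66, SE 0.31), secreted heparin-binding growth factors, and Gdnf (0.54, SE 0.29), a trophic ligand of the RET receptor, had the smallest p-values.

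Ganglion neuron markers, 30 of 30 tested, had a median log2 fold change of 0.02, 19 of them positive, and 0 were called by the 3 tools with 1 at an unadjusted p under 0.05. The smallest p-values were those of Gap43, a growth cone protein, at 0.58 (SE 0.21), Epha4, an ephrin receptor, at 0.24 (SE 0.12), and Calb2, the calcium buffer calretinin, at -0.26 (SE 0.15). Markers of hair cells, a source of BDNF and NT-3, were also detected in all libraries, with a summed level of 376 to 431 CPM in mutants and 373 to 441 CPM in wild-type mice. Of 14 tested, 3 were positive, with a median of -0.10, and 0 were called by the 3 tools or had an unadjusted p under 0.05. Myo6 (0.14, SE 0.09), Myo7a (-0.14, SE 0.09), both hair bundle myosins, and Slc26a5, prestin of outer hair cells (0.39, SE 0.31), had the smallest p-values. Supporting cell markers summed to 1706 to 2325 CPM in mutants and 1696 to 2413 CPM in wild-type mice (8 of 15 positive, median 0.07, 0 called by the 3 tools, 0 at an unadjusted p under 0.05), with S100a1 at -0.37 (SE 0.17), Hes1 at 0.25 (SE 0.12) and Cyp26b1 at 0.36 (SE 0.20). Ganglion, hair cell and supporting cell markers were thus present in each library, and no marker on these lists had a count of 0 in all 8.

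Glia also express Ntrk2 and Ntrk3 in some tissues, and the levels of glial and other markers are given here beside them; their part in the receptor values was not tested. Schwann and satellite glia markers summed to 13121 to 16863 CPM in mutants and 10243 to 14809 CPM in wild-type mice (12 of 15 positive, median 0.18, 0 called by the 3 tools, 1 at an unadjusted p under 0.05). Fabp7, a fatty acid binding protein of satellite glia, stood at 0.56 (SE 0.24), Mag at 0.37 (SE 0.18) and Mbp at 0.42 (SE 0.23), both myelin proteins, and without wild-type replicate 4 Fabp7 was at 0.34 and Mag at 0.22. Central glia markers, 13 of 13 positive with a median of 0.25, summed to 1084 to 1600 CPM in mutants and 792 to 1541 CPM in wild-type mice, with 0 called by the 3 tools and 0 at an unadjusted p under 0.05. Olig2, of oligodendrocytes, stood at 0.72 (SE 0.34), and Slc1a3 and Aqp4, of astrocytes, at 0.25 (SE 0.13) and 0.39 (SE 0.21). Mutant replicate 4, the highest library for Ntrk2, had the highest sum of both glia lists. Wild-type replicate 4, the lowest library for Ntrk3, had the lowest sum of both. Without wild-type replicate 4 the Ntrk3 log2 fold change was 0.231. Wild-type replicate 2 was above mutant replicate 1 in the central glia sum and below it in the Schwann and satellite glia sum and in both receptors. Central neuron markers (6 of 11 positive, median 0.11) summed to 112 to 136 CPM in mutants and 93.8 to 136 CPM in wild-type mice, with 0 called by the 3 tools or at an unadjusted p under 0.05. Slc6a5, a glycine transporter, stood at 1.51 (SE 0.71), Zic2 at 0.17 (SE 0.08) and Glra1, a glycine receptor, at 0.66 (SE 0.42). Without mutant replicate 4, Slc6a5 was at 0.35, Glra1 at 0.17 and Aqp4 at 0.18.

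Mutant replicate 4 also held choroid plexus RNA, with Ttr, transthyretin, at 2021 CPM against at most 32.5 CPM in the other libraries. The 10 choroid plexus markers, all positive with a median of 0.58, summed to 241 to 2803 CPM in mutants and 179 to 219 CPM in wild-type mice. None of them was called by edgeR or limma-voom, DESeq2 gave no p for Ttr and Slc4a5 and called 0 of the others, and 2 had an unadjusted p under 0.05 by edgeR. Ttr stood at 5.62 (SE 2.14), Enpp2, autotaxin, at 1.19 (SE 0.46) and Slc4a5, a bicarbonate transporter, at 1.65 (SE 0.82). Without mutant replicate 4 these values were 0.62, 0.48 and 0.05. Mesenchyme and bone markers summed to 12935 to 24301 CPM in mutants and 8713 to 17436 CPM in wild-type mice (14 of 15 positive, median 0.38, 0 called by the 3 tools, 2 at an unadjusted p under 0.05), with Ibsp, a bone matrix protein, at 0.81 (SE 0.30), Dcn, decorin, at 0.33 (SE 0.14) and Col3a1, a collagen, at 0.74 (SE 0.35). Skeletal muscle markers (4 of 11 positive, median -0.25, 0 called by the 3 tools or at an unadjusted p under 0.05) summed to 12.0 to 19.9 CPM in mutants and 13.9 to 23.7 CPM in wild-type mice, with the muscle myosin genes Mylpf at -0.60 (SE 0.29), Myh4 at -0.70 (SE 0.46) and Myh7 at 0.59 (SE 0.41). Lymphoid markers (4 of 10 positive, median -0.18, 0 called by the 3 tools, 1 at an unadjusted p under 0.05) summed to 275 to 337 CPM in mutants and 292 to 362 CPM in wild-type mice, with Tcf7, a T cell factor, at 0.38 (SE 0.15), Il7r, an interleukin receptor, at -0.85 (SE 0.44) and Lck, a T cell kinase, at -0.57 (SE 0.30). Of 11 genes of thyroid hormone action, 9 were positive with a median of 0.11, 0 were called by the 3 tools, and 4 higher and 1 lower had an unadjusted p under 0.05. Hr, a corepressor, stood at -0.91 (SE 0.24) and Crym, a hormone binding protein, at 0.66 (SE 0.24).

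Mucosal epithelium markers were the list with called genes. The lists were chosen with earlier results of these data known, so the direction and calls of this list are a description and no independent support. Of 13 tested, 13 were negative, with a median of -4.33, and 4 fell in mutants by edgeR and 9 by DESeq2. These 4 were Bpifa1, a secreted airway protein, at -8.81 (SE 0.64, edgeR adjusted p = 0.00701), and the keratins Krt4 (-5.84, SE 0.58), Krt5 (-5.31, SE 0.53) and Krt14 (-3.61, SE 0.38). The call on the Krt4 log2 fold change, and that on Krt5, was lost in edgeR's test without mutant replicate 1, mutant replicate 2 or wild-type replicate 4 (adjusted p from 0.0516 to 0.0937). The call on Krt14 was lost without mutant replicates 1 or 4 or wild-type replicates 1, 2 or 4 (adjusted p from 0.055 to 0.0937). With title form as covariate the calls on Krt4 and Krt14 were lost (edgeR adjusted p of 0.0632 for both), and limma-voom did not call Krt4 (adjusted p = 0.091). The summed level of the list was 52.3 to 62.1 CPM in mutants and 258 to 725 CPM in wild-type mice.

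Across the 8 libraries, each member had genes whose log2 CPM followed it closely, given here as a description among 19382 genes with a mean of at least 1 CPM. Pou4f1 had 223 genes with a Pearson r above 0.9, led by Bscl2 (0.993), Gng3 (0.992) and Prkar1b (0.991), which share its low values in both replicate 3 libraries. Ntf3 had 91, led by BC021767 (0.983), Slc47a2 (0.978) and Gm9833 (0.977). Ntrk3 had 39, led by Mgea5 (0.977), Pkia (0.975) and Bche (0.961), and Ntrk2 had 29, led by Lzts3 (0.964), Pakap (0.962) and St8sia3 (0.958). Bdnf had 28, led by Cystm1 (0.975), Arhgef12 (0.969) and Cxcl14 (0.959), and Gata3 had 16, led by Spata2l (0.942), Tpcn1 (0.936) and Cd200r3 (0.932). The coefficients are the highest of 19382 over 8 points, and both genes of a pair share each library with its depth and its mix of cells.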

How the data were processed

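Total RNA was made into libraries with a Lexogen kit that includes molecular identifiers (per the labels' protocols). Per the submitters' processing notes, FastQC, STAR, HTSeq and mm10 are listed, with no versions. Which annotation, strand setting and counting options were chosen, and whether duplicates were removed by identifier, was not given in the sources used here. The authors deposited whole-number counts per gene symbol, not normalized. From these, edgeR 4.0.16 in R 4.3.3 was run with TMM normalization, the default filter by group, robust dispersions for the quasi-likelihood test and genotype as the sole term, with Benjamini-Hochberg adjustment over 21392 genes. CPM used the normalized library sizes. The standard error is the log2 fold change divided by the square root of F. The fit was tested on simulated data. Coordinates came from GENCODE M21 by symbol. No 2 libraries agreed within sampling noise. Replicates were numbered in accession order.

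Named were the 6 genes, Thra, Ntf5, Ngfr and Sort1, the 3 genes of smallest p in each list (more where called), and the 3 genes most correlated with each member (prior count 2). The results of some genes named by this rule are not reported here. The members and lists were chosen with earlier results of these data known. Alternatives were DESeq2 1.42.0, limma-voom (limma 3.58.1), other normalizations and filters, haemoglobin and mitochondrial genes left out, each library left out, title form as covariate and a replicate block.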

Additional observations from a re-analysis of the deposited data

Results flagged for a closer look

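One library lay apart from the other 3 of its genotype, by Dixon's test at the 95% level, in 12 of 152 groups of 4, and chance marks about 1 in 20 groups. Pou4f1 had 10.5 CPM in wild-type replicate 3 and 18.7 to 19.7 CPM in the other wild-type libraries. Neurod1, a factor of young neurons, had 2.21 CPM in mutant replicate 2 and 0.702 to 0.921 CPM in the other mutants, and 5.57 CPM in wild-type replicate 3 with 0.735 to 1.29 CPM in the other wild-type libraries.

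Mutant replicate 4 stood apart in further genes. Aqp4 had 194 CPM there and 115 to 123 CPM in the other mutants, Slc6a5 3.07 CPM and 0.388 to 0.598 CPM, Enpp2 659 CPM and 171 to 195 CPM, and Slc4a5 11.3 CPM and 1.01 to 1.66 CPM. Ttr had 2020 CPM there and 5.96 to 32.5 CPM in the other mutants, and the choroid plexus markers summed to 2800 CPM and 241 to 259 CPM. Nras had 58.5 CPM in mutant replicate 1 and 54.4 to 54.7 CPM in the other mutants. Runx1 had 35.3 CPM in wild-type replicate 2 and 27.7 to 28.7 CPM in the other wild-type libraries, and Fabp7 had 13.3 CPM in wild-type replicate 4 and 29.0 to 31.1 CPM in those.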

How the results depend on the processing

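Over 108 values of the 6 genes under other settings, 0 passed the threshold and 3 changed sign, all of Pou4f1, whose log2 fold change ran from -0.239 to 0.137 as single libraries were left out. The Ntrk3 log2 fold change stayed positive, from 0.231 to 0.345, with adjusted p from 0.101 to 1. Genes called higher numbered 19 by DESeq2, 5 by limma-voom, 17 with neighbouring title numbers as a replicate block, 5 without both replicate 3 libraries (chosen after seeing the data) and 2 to 5 with 1 library left out. Genes called lower numbered 49 by DESeq2, 4 with title form as covariate and 4 to 9 with 1 library left out. Pairing was examined on log2 CPM after the mean of each genotype was subtracted per gene. These deviations correlated between -0.0384 and 0.252 in same-numbered libraries, and 5 of 8 libraries correlated best with their own number. Relative to sampling noise, mutant replicate 3 and wild-type replicate 3 were closer to each other than any other 2 libraries. This was a hint from the data for some pairs but not for all, so the comparison was kept unpaired. The choice matters for the spread. With neighbouring title numbers as a replicate block, 2910 genes had an unadjusted p under 0.05, against 1134 in the unpaired comparison. With the block, the Ntrk3 log2 fold change was 0.277 (adjusted p = 0.18), Hr, lower in mutants, and Col3a1, higher, gained a call (adjusted p = 0.0451 each), and that on Bpifa1 was lost (adjusted p = 0.0643). Leaving out single libraries moved Bdnf over Ntf3 between -0.929 and 0.0117 and Gata3 over Pou4f1 between -0.429 and 0.217, while Ntf3 itself ran from -0.27 to -0.0726 and Gata3 from -0.244 to -0.0498. Ngfr ran from -0.181 to 0.107, the Ntf5 log2 fold change from -0.326 to 0.0865 (0.0193 by limma-voom, 0.246 without both replicate 3 libraries) and Neurod1 from -1.36 to 0.196 (0.313 without both). The causes of these changes were not tested. Of the other values of named genes, 888 kept direction and side of the threshold, 15 (all of Bpifa1, Krt4, Krt5 and Krt14) lost a call and 2 gained one. Ntf3, Bdnf and Ntf5 are limited by low counts.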
